A study of Mus musculus with 2 samples.

Results

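The genes described here are those of the cytosolic ribosomal proteins in mouse cerebral cortex, measured on 2 Affymetrix arrays. Members were taken by gene symbol from the probe annotation: single symbols that start with Rpl or Rps followed by a digit, together with Rplp0, Rplp1, Rplp2 and Rpsa, without the S6 kinase genes and Rpl7l1. The rule found 50 of 18193 named genes, 25 of the large and 25 of the small subunit by symbol, with 104 probe sets. Of the 50 members, 43 encode core ribosomal proteins, 5 are paralogs of core genes, 1 is a pseudogene and 1, Rps19bp1, encodes a binding partner of Rps19. Rplp1 was not among them, because each probe set listing it names other genes too.

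Each array received total RNA mixed in equal parts from the cortex of 3 males aged 4 weeks on a 129/B6 background. The first group is titled Gnmt knockout (here KO-labelled) and the second wild-type. Gnmt encodes glycine N-methyltransferase, which uses S-adenosylmethionine to methylate glycine. The genotype entry of the KO-labelled sample reads wild-type, so the groups rest on the titles, and the labels do not describe the allele. With 1 array of pooled RNA per group there was no replicate and no test was possible, so each ratio compares these 2 pools, and precision is limited by this number of arrays. In such bulk RNA, fewer cells of a type cannot be told apart from less RNA per cell.

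The ribosome is built from a small subunit, which decodes mRNA, and a large subunit, which joins amino acids and passes the growing chain out through an exit tunnel. Its proteins are made in matched amounts, and their mRNAs are short, abundant and start with a run of pyrimidines, the terminal oligopyrimidine (TOP) tract, through which the growth-regulating kinase mTOR controls their translation. In neurons, ribosomal protein mRNAs are also found in axons and dendrites. Most of these genes have many processed pseudogenes in the mouse genome, so a probe set named for a single gene may still bind related transcripts.

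The sequence around the annotated start of transcription, where a TOP tract would begin, is shown for 8 core genes. They are the 4 lowest in the comparison of arrays and the 4 brightest among those within 1.5-fold that have a promoter entry, which leaves out Rps29. They are given to show that neither group has a single kind of start. Sequences are from RefSeq, build GRCm38.p6, 5′ to 3′ on the strand of the gene, with 30 bases before and 20 from the annotated start onward. Capitals mark the longest run of C or T that touches the 5 bases on either side of the start, which need not be a TOP tract. The runs of Rps7, Rpl4, Rps3 and Rpl41 end before the annotated start.
Rps7, chr12:28635934-28635983, minus strand: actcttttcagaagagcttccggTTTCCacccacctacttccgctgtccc
Rpl4, chr9:64173357-64173406, plus strand: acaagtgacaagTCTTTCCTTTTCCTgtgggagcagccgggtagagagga
Rpl35, chr2:39005112-39005161, minus strand: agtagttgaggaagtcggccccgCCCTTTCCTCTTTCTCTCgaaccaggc
Rps3, chr7:99483690-99483739, minus strand: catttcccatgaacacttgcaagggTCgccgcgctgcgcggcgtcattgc
Rps28, chr17:33824543-33824592, minus strand: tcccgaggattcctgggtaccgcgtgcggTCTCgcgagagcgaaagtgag
Rpl38, chr11:114668550-114668599, plus strand: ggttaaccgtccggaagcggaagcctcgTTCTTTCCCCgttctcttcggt
Rpl37a, chr1:72711230-72711279, plus strand: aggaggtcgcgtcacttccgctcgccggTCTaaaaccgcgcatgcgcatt
Rpl41, chr10:128549149-128549198, minus strand: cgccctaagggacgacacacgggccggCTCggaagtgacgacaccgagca
Runs were long and short in both groups of 4: Rpl35, Rpl4 and Rpl38 had 18, 14 and 10 pyrimidines in a row, and Rps3, Rpl37a and Rpl41 had 2 or 3. Of 43 core genes, 38 had a promoter entry, and 19 of these (50%) had a run of at least 6 pyrimidines there, against 20.03% of all 27025 genes with an entry. The letters CCGGAA, on either strand, the core of the binding motif of ETS family factors, were found in the 300 bases around the start of 23 of the 38 (60.5%) and of 15.2% of all. Among the 17491 protein-coding genes with an entry, 19.9% had such a run and 19.1% these letters. Core genes measured on both arrays had a median log2 ratio of -0.36 with the longer run (19 genes) and of -0.42 with a shorter one (18 genes). These are letter matches to annotated starts, which can miss the start used in cortex.

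Signals are linear array units, and a gene is represented by its brightest probe set. A gene counted as measured when it reached a floor of 64.2 units on both arrays, as 46 of the 50 members did. The log2 ratio of KO-labelled over wild-type was centred on the median of measured probe sets. The median signal of the 42 measured core genes was 6879.9 units in the KO-labelled pool and 12335 units in the wild-type pool, while the median over all measured genes was 647.5 and 687.2 units. Summed over these 42 genes, the signal of the KO-labelled pool was 71.2% of that of the wild-type pool. Ribosomal protein genes were thus among the brightest on both arrays, and as a group dimmer in the KO-labelled pool.

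**Figure D1:**
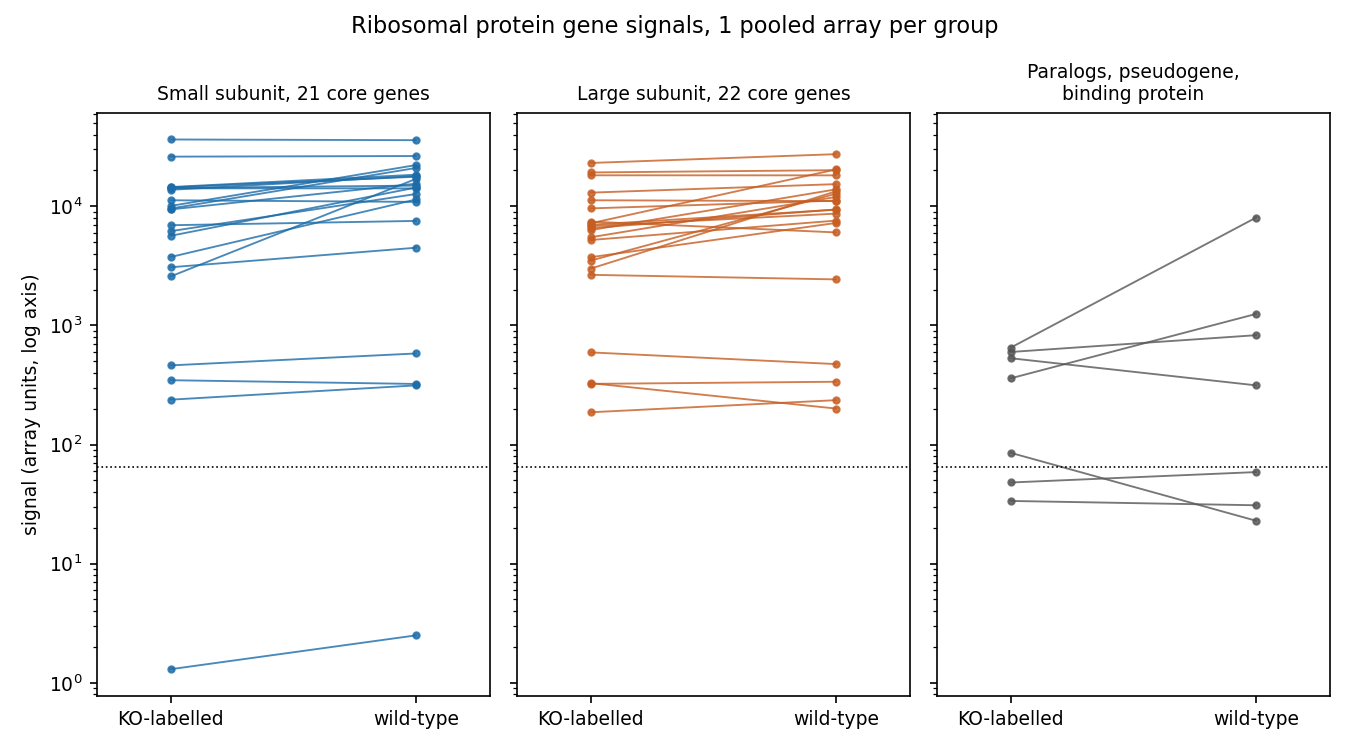
Signal of each of the 50 ribosomal protein genes (array units, log axis) in the KO-labelled pool at the left and the wild-type pool at the right of each panel, with a line per gene; the dotted line is the floor of 64.2 units. Most core genes lie far above the floor on both arrays, and many lines run upward towards the wild-type pool.

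Most members were lower in the KO-labelled pool, by amounts that differed from gene to gene. The median log2 ratio of the 46 measured members was -0.36, against -0.06 over all 12244 measured genes. The ratio was below 0 for 37 of the 46, and for 6629 of all 12244 genes. Within 1.5-fold lay 29 of the 46 members and 8485 of the 12244 genes. By 1.5-fold or more, 15 members (32.6%) were lower, where the share of all genes was 18.2%, and 2 members (4.35%) were higher, where the share of all genes was 12.5%. At 2-fold the members counted 13 lower and 0 higher, with 6.75% and 3.47% of all genes past the same fold. The 42 core genes alone gave 13 lower and 1 higher by 1.5-fold and a median of -0.35. The spread among members was wide, with an SD of 0.86 (n = 46 genes, not replicates), and the interquartile range ran from -1.11 to -0.04.

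**Figure D2:**
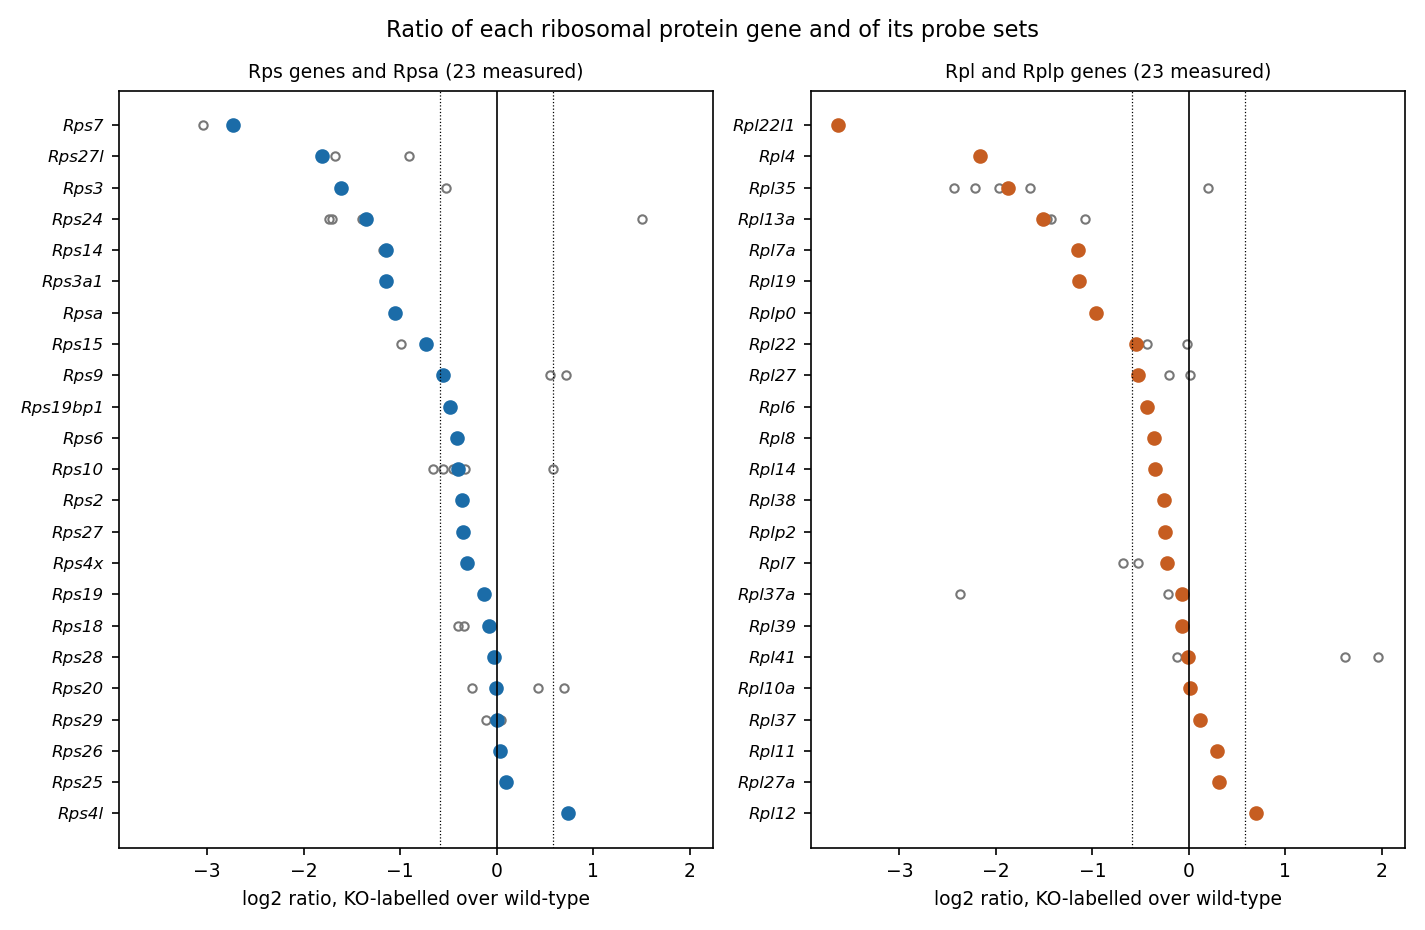
Log2 ratio of KO-labelled over wild-type for the 46 measured ribosomal protein genes, filled points for the brightest probe set and open points for the other measured probe sets of the gene; dotted lines mark 1.5-fold. Rps7, Rpl4 and Rpl22l1 lie far to the left, most filled points are at or below 0, and single dim probe sets of Rps24 and Rpl41 lie far to the right.

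The subunits had similar medians and counts. Of 20 measured core genes of the small subunit, 7 (35%) were at least 1.5-fold lower and 0 higher in the KO-labelled pool, with a median log2 ratio of -0.38. The 22 of the large subunit counted 6 lower (27.3%) and 1 higher and had a median of -0.30. The interquartile ranges overlapped almost fully, from -1.07 to -0.07 for the small and from -0.86 to -0.03 for the large subunit.

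Among proteins of the body of the small subunit, Rps7 had the lowest ratio of all core members. Rps7, which is needed to process the rRNA of the small subunit and whose protein can bind the p53 regulator Mdm2, gave 2580.3 units in the KO-labelled pool and 17004.9 units in the wild-type pool. Its second probe set gave 1746.8 and 14264.6 units. The log2 ratios were -2.73 and -3.04, so both probe sets placed the KO-labelled pool more than 6-fold lower, and the gene ranked 13 from the bottom among all measured genes. Rps24, an rRNA maturation factor whose human gene is mutated in Diamond-Blackfan anaemia, gave 5654.1 and 14375.8 units, with a log2 ratio of -1.36. Its 4 brightest probe sets lay between -1.74 and -1.36, but a dim one went the other way, with 340.6 and 119.3 units and a ratio of 1.502.

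Rps14, a protein of the platform close to the path of mRNA, gave 10077 units in the KO-labelled pool and 22190.3 units in the wild-type pool. Its 2 probe sets were nearly equal in ratio, at -1.15 and -1.18. Rps3a1, which lies near the mRNA exit, gave 9578.2 and 20984.2 units (-1.14). Rpsa, also known as the laminin receptor, gave 6183.4 and 12689 units (-1.05), its other probe set being below the floor. These 3 genes were each slightly more than 2-fold lower in the KO-labelled pool. Rps9, a protein of the mRNA entry site, had no settled direction: its brightest probe set gave 3077.6 and 4489.5 units (-0.56), and the next gave 3501.9 and 2104.8 units (0.72). Rps6, the substrate of the S6 kinases, was represented by a probe set of only 238 and 313.7 units (-0.41). Rps2, Rps4x and Rps27 lay between -0.36 and -0.31 and Rps26 at 0.03. Altogether, 5 of 11 body genes (45.5%) were at least 1.5-fold lower and 0 higher, with a median of -0.56, where 18.2% of all genes were lower. This grouping, like those of the head, tunnel and stalk below, was chosen with earlier results of these data known.

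Genes of the head of the small subunit were closer to equal, except for Rps3 and Rps15. Of 9 measured, 2 were at least 1.5-fold lower and 0 higher, and the median was -0.08. That share of 22.2% lies close to the 18.2% of all genes. Rps3, which contacts mRNA at its entry and has a separate role in DNA repair, gave 3754.9 units in the KO-labelled pool and 11410.3 units in the wild-type pool (-1.62). Its second measured probe set, at 480.5 and 687.7 units, gave -0.53. Rps15, which reaches towards the decoding centre, gave 9418.5 and 15485.1 units (-0.73), and its other probe set -0.99. Rps10, with 6 probe sets, gave 13753.1 and 17965.5 units (-0.40); 5 of the 6 lay between -0.66 and -0.32, and the dimmest gave 0.58. Rps19, whose human gene is the one most often mutated in Diamond-Blackfan anaemia, lay at -0.13, Rps18 at -0.08 and Rps25 at 0.09.

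The 5 brightest members hardly differed between the pools. Rps29, a small zinc-binding protein of the head, gave 36375.6 units in the KO-labelled pool and 35889.7 units in the wild-type pool, with its 3 probe sets between -0.11 and 0.05. Rps28, which sits where mRNA leaves the ribosome, gave 26108.5 and 26420.2 units, and its 3 probe sets differed by at most 0.0055 on the log2 scale. Rpl38, known in mouse embryos for its part in translating Hox mRNAs, gave 23107 and 27394.1 units (-0.26). Rpl37a gave 19236.3 and 20098.8 units (-0.08), although a dim probe set of 161.3 and 829 units gave -2.37. Rpl41, which encodes the smallest ribosomal protein, gave 18207.2 and 18182.4 units (-0.01), while 2 dim probe sets gave 1.61 and 1.96. Together the 5 ran from -0.26 to 0.01.

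In the large subunit, genes assigned to the exit tunnel and its opening had the lowest median, -1.51, though they number only 4. The grouping was chosen with earlier results of these data known, so this ranking is a description only. Rpl4, which forms part of the tunnel wall, gave 3000.1 units in the KO-labelled pool and 13366.9 units in the wild-type pool by its single probe set, a log2 ratio of -2.17 or 4.49-fold lower. Rpl35, at the rim of the opening where the nascent chain meets targeting factors, gave 3501.9 and 12763.8 units (-1.88). Its 5 bright probe sets lay between -2.43 and -1.65 and thus all placed the KO-labelled pool over 3-fold lower. The sixth, close to the floor at 76 and 65.5 units, gave 0.20. Rpl19, also at the rim, gave 5494.5 and 11981 units (-1.14), and Rpl39, of the tunnel wall, gave 323 and 336.5 units (-0.07) by a dim probe set.

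Of the stalk, which recruits the translation GTPases, Rplp0 gave 3738.8 units in the KO-labelled pool and 7248.7 units in the wild-type pool (-0.97), and Rplp2 gave 13021.9 and 15346.3 units (-0.25). Rpl12, at the base of the stalk, had the second highest ratio of all members, 0.70, but at only 327.4 and 200.4 units. Among the other 15 genes of the large subunit, 2 (13.3%) were at least 1.5-fold lower and 0 higher, a share of lower genes no larger than the 18.2% of all genes. Rpl13a, whose human protein can leave the ribosome to silence inflammatory mRNAs, gave 7200.8 and 20402.5 units (-1.51), and all 4 of its probe sets lay between -1.51 and -1.08. Rpl7a gave 6314 and 13874.3 units (-1.15). Rpl22, Rpl27, Rpl6, Rpl8, Rpl14, Rpl7 and Rpl10a lay between -0.55 and 0.01, and Rpl37, Rpl11 and Rpl27a between 0.12 and 0.31. Rpl11, which with the 5S ribonucleoprotein can restrain Mdm2, gave 7432.6 and 6035 units (0.29).

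The paralogs went in both directions. Rpl22l1, the paralog of the RNA-binding protein gene Rpl22, had the lowest ratio of all members and the second lowest of all 12244 measured genes, by a single probe set. It gave 651.4 units in the KO-labelled pool and 8042.8 units in the wild-type pool (-3.64), whereas Rpl22 gave 5214.8 and 7582.7 units (-0.55) and its other probe sets -0.43 and -0.02. Rps27l, the paralog of Rps27 and a target of p53, gave 359.8 and 1249.1 units (-1.81), and its other probe sets -1.68 and -0.90. Rps27 itself lay at -0.34 by a dim probe set. Rps4l, a paralog of Rps4x, had the highest ratio of all members, with 529.9 and 313.8 units (0.74), while Rps4x gave 14403.4 and 17708.8 units (-0.31). Rps19bp1, which encodes a nucleolar partner of Rps19 and of the deacetylase Sirt1, gave 598.4 and 827.7 units (-0.48).

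The remaining 4 members were not measured on both arrays. Rpl3l, a paralog used in muscle, gave 33.6 and 30.9 units, and Rpl39l, one used in the male germ line, gave 48 and 58.7 units, all below the floor. Rps16 is a core gene, but its single probe set gave 1.3 and 2.5 units, so that probe set reports no level. The pseudogene Rps15a-ps6 passed the floor in the KO-labelled pool alone, with 85.1 units there and 22.9 units in the wild-type pool, at least 1.31-fold higher.

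The 2 brightest probe sets of a gene mostly gave the same direction. Of 19 members with 2 or more measured probe sets, 17 (89.5%) had the brightest pair on the same side of 0, compared with 66.6% of 5375 such genes overall. The probe set error, taken as the SD of the difference within these pairs divided by the square root of 2, was 0.32 on the log2 scale for members and 0.58 for all genes. This error leaves out any spread between mice and any probe set dimmer than the brightest 2. With dimmer ones included, Rps24, Rpl35, Rpl41, Rps9, Rps10, Rps20, Rpl27 and Rps29 had measured probe sets on both sides of 0. Every measured probe set was at least 1.5-fold lower in the KO-labelled pool for 5 of the 19, Rps7, Rpl13a, Rps14, Rps15 and Rps27l, and at least 1.5-fold higher for 0. This was not counted over all genes. Both probe sets of the brightest pair were at least 1.5-fold apart in the same direction for 7 of the 19 members and 744 of the 5375 genes. Measured probe sets spread over more than 1 on the log2 scale in 7 of the 19. The widest spreads within a gene were those of Rps24 (3.24), Rpl35 (2.64), Rpl37a (2.30), Rpl41 (2.08) and Rps9 (1.28).

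Members' counts differed with the brightness and the type of the probe set, and part of these differences was shared by all probe sets. The 91 measured probe sets of members counted 33 lower and 7 higher in the KO-labelled pool by 1.5-fold or more, with 18.1% and 16.5% of all single-gene probe sets past the same fold. Among the 10% of probe sets with the highest mean signal, from 2995 units, members counted 26 lower and 0 higher of 62 (41.9% and 0%), where all single-gene probe sets counted 15.1% and 8.2%. Below that cut members counted 7 lower and 7 higher of 29 (24.1% each), closer to the 18.5% and 17.4% of all probe sets there. Higher ratios were thus scarcer among bright probe sets of all genes, too. Probe sets with no letter suffix, designed to bind 1 transcript, counted 4 lower and 5 higher of 22 (18.2% and 22.7%), against 17.2% and 17.8% of all such probe sets. The bright ones among these were for Rpl19, Rpsa, Rps15, Rplp0 and Rpl27, and all 5 lay between -1.14 and -0.53. Of these 5, 4 were at least 1.5-fold lower and 0 higher, against 14.9% and 7.01% of all 1127 bright probe sets with no suffix. The 17 dimmer ones counted 0 lower and 5 higher (29.4%), against 17.4% and 18.7% of all 14101 such probe sets. Probe sets with the suffix a or x, which can bind several transcripts, counted 12 of 28 and 17 of 38 lower, and 0 and 2 higher. Over all genes, 23.6% of probe sets with suffix a were lower and 11.4% higher, while those with suffix x were 15.1% lower and 16% higher. The lean of suffix a towards lower ratios was thus partly general. Across the 91 probe sets, which share the 2 arrays, the correlation of ratio with mean log2 signal was -0.27 by Pearson's r and -0.09 by Spearman's rho. Leaving out all suffixed probe sets reduces the members to 22 and turns the counts to 4 lower and 5 higher.

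**Figure D3:**
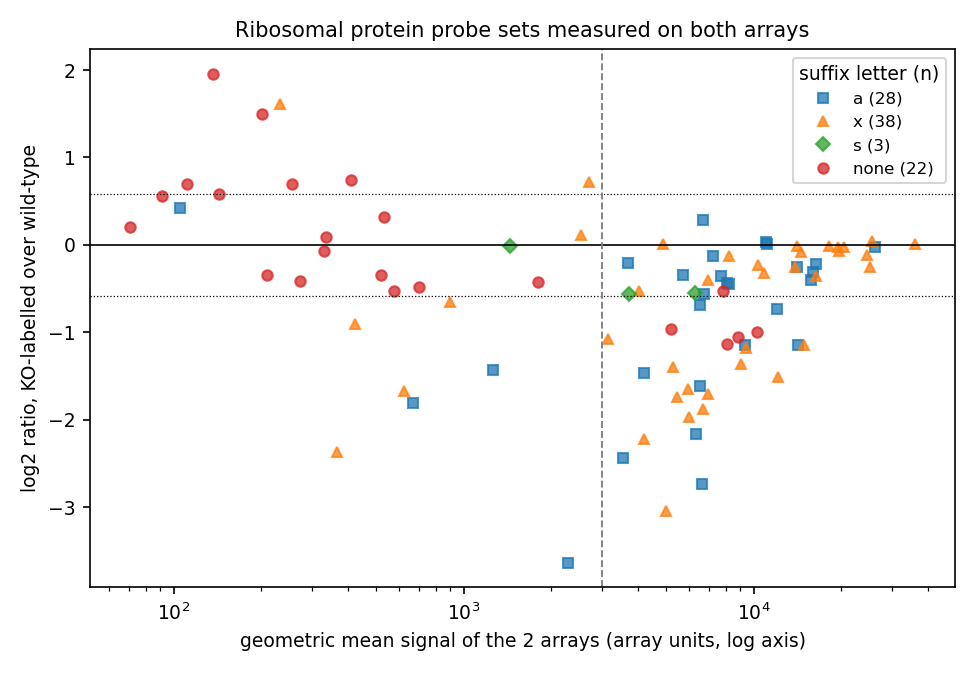
Log2 ratio of KO-labelled over wild-type against the geometric mean signal of both arrays (array units, log axis) for the 91 measured ribosomal protein probe sets, by suffix letter; the dashed line is the cut of the brightest 10% of probe sets and dotted lines mark 1.5-fold. To the right of the dashed line 26 of 62 points are at or below the lower dotted line and 0 reach the upper one.

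For 9 of the 43 core genes the single-gene probe set was below the brightest 10% of genes, and in all 9 a brighter probe set exists that lists the gene beside other symbols. Rpl12, Rpl14, Rpl27a, Rpl37, Rpl39, Rps6, Rps16, Rps25 and Rps27 are these 9, so their values above rest on dim probe sets. The 110 probe sets that list a ribosomal protein among several symbols were not used for gene values. Of their 102 measured, 42 (41.2%) were at least 1.5-fold lower and 5 (4.90%) higher in the KO-labelled pool, with a median of -0.39. Over all 553 measured probe sets with several symbols, 26.0% were lower and 13.7% higher, and the median was -0.19. Counting each such probe set under its core ribosomal protein, a choice made after seeing the data, gave 74 genes with 33 lower, 1 higher and a median of -0.49. By single-gene probe sets, 18.2% of all genes were lower and 12.5% higher.

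Members share short genes and, for the most part, high signals. All 46 measured members were among the shortest 25% of genes by genomic length, at most 10375 bases, where the median over all genes was -0.15 and 21.4% were at least 1.5-fold lower. Short genes as a whole were thus slightly lower than all genes. Brightness and ratio were nearly uncorrelated over all 12244 measured genes, which share the 2 arrays, with a Pearson's r of -0.034 and a Spearman's rho of -0.035. Of the members, 34 were among the brightest 10% of genes, from 3635 units. These 34 had 13 lower and 0 higher by 1.5-fold and a median of -0.41. Among the brightest 10% as a whole, the median was -0.08 and the shares of lower and higher genes were 13.9% and 6.86%. The 329 other genes that were both as bright and as short had a median of -0.13, with 16.4% lower. The part of length and brightness in the members' ratios was not tested beyond these values.

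Control probe sets and other cell types also differed between the arrays. The ratio of 3′ to 5′ signal, a gauge of RNA integrity, was 1.02 in the KO-labelled pool and 0.93 in the wild-type pool for Gapdh, and 3.76 and 3.71 for beta-actin. The 18S rRNA control probe sets were 1.16 to 1.31 times as bright in the KO-labelled pool, and those of beta-actin 2.71 to 3.92 times. Among bacterial and phage transcripts added as controls, the bioC probe sets were 0.29 to 0.34 times as bright in the KO-labelled pool, those of bioB 0.64 to 0.79 times, those of cre 0.80 to 0.85 times and those of bioD 0.82 to 1.06 times. All 6 neuron markers were above the floor on both arrays, with summed signals of 82619 and 86167 units. So were the 3 markers of cortical projection neurons that were found, with 8805 and 4736 units. Of these, Tbr1 (1.06) and Bcl11b (1.04) were at least 1.5-fold higher in the KO-labelled pool, and Fezf2 lay at -0.40. The probe sets of Bcl11b ran from 0.19 to 1.53. Of 3 blood markers, only Alas2 passed the floor, with 217 units in the KO-labelled pool and 252.4 units in the wild-type pool. Blood thus rests on this marker alone. Summed markers of astrocytes, oligodendrocytes, microglia and choroid plexus in the KO-labelled pool were 89.9% to 99.8% of those in the wild-type pool. These sums are carried by the brightest markers, and single markers moved further. Of 5 microglia markers, C1qa (-1.81), P2ry12 (-1.30) and C1qb (-0.93) were at least 1.5-fold lower in the KO-labelled pool and Cx3cr1 (1.97) higher, with the brightest, Csf1r, at 0.28. Of 5 astrocyte markers Gfap (-1.23) and Aqp4 (-1.13), and of 3 oligodendrocyte markers Mobp (-0.76), were lower by that fold. The 3 probe sets of Aqp4 ran from -1.33 to 1.60, so its direction was not settled. The 4 of Mobp ran from -1.27 to -0.14, and the 3 of Csf1r from -0.70 to 0.28. Of 6 anterior pituitary markers, 3 reached the floor in the KO-labelled pool and 6 in the wild-type pool, with summed signals of 724.7 and 31335 units. The single Gnmt probe set was below the floor on both arrays, at 21.5 and 10 units, and so could not check the labels. The part of pituitary, glial or projection neuron RNA, or of array performance, in the ratios of the ribosomal protein genes was not tested.

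Other genes of the translation machinery, from lists chosen for this comparison, were on the whole also lower in the KO-labelled pool. Of 33 measured ribosome biogenesis factors, 17 (51.5%) were at least 1.5-fold lower and 1 (3.03%) higher, with a median of -0.60, where the shares of all genes were 18.2% and 12.5%. Nsa2, which matures the large subunit, gave 149.2 units in the KO-labelled pool and 1104.4 units in the wild-type pool (-2.90), the histone and ribosome chaperone gene Npm1 gave 1522.9 and 5974.9 units (-1.98), and Ebna1bp2 gave 177.3 and 611 units (-1.80). Both probe sets of Nsa2 and of Npm1 were at or below -1.60. The highest members of the list were Gar1, a protein of the pseudouridine-forming snoRNPs, at 0.94, Rrs1 at 0.08 (its other probe set -0.33) and Polr1b, a subunit of RNA polymerase I, at 0.05.

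The 15 other measured genes known for TOP mRNAs counted 5 lower (33.3%) and 1 higher (6.67%) by 1.5-fold and had a median of -0.47. Of all genes, 18.2% were lower and 12.5% higher. The lists overlap, with Npm1 also a listed biogenesis factor and Naca and Btf3 also listed as ribosome-associated. Npm1 (-1.98) and Naca (-0.86) were thus counted as lower in each of their lists. The lowest were the initiation factor subunit gene Eif3h, with 1111 units in the KO-labelled pool and 5452.8 units in the wild-type pool (-2.31), Npm1, and the elongation factor gene Eef1b2, with 2689.3 and 6659.4 units (-1.32). The highest were Hnrnpa1 (0.89), Eef2 (0.31) and Eef1d (0.14). The elongation factor gene Eef1a1, as bright as the brightest ribosomal protein genes at 26736.3 and 30101.8 units, had a ratio of -0.18. Fau, which encodes the small subunit protein Rps30 but falls outside the symbol rule, lay at -0.13. The 13 measured ribosome-associated factors counted 5 lower (38.5%) and 0 higher, beside the same 18.2% and 12.5% of all genes, and had a median of -0.29. Dnajc2, a chaperone partner at the tunnel opening, was lowest with 160.5 and 1198.9 units (-2.91; its other probe set -1.10), followed by Serbp1, which occupies idle ribosomes (-1.02), and the ribosome recycling factor gene Abce1 (-1.003). Neither of these 2 had a settled direction, since the 6 probe sets of Serbp1 ran from -1.52 to 0.66 and the 3 of Abce1 from -1.24 to 1.08. Ltn1, the ligase that tags stalled chains, Zfp598 and Gcn1, sensors of collided ribosomes, were highest at 0.11, 0.08 and 0.03, with the probe sets of Ltn1 between -0.32 and 0.56.

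**Figure D4:**
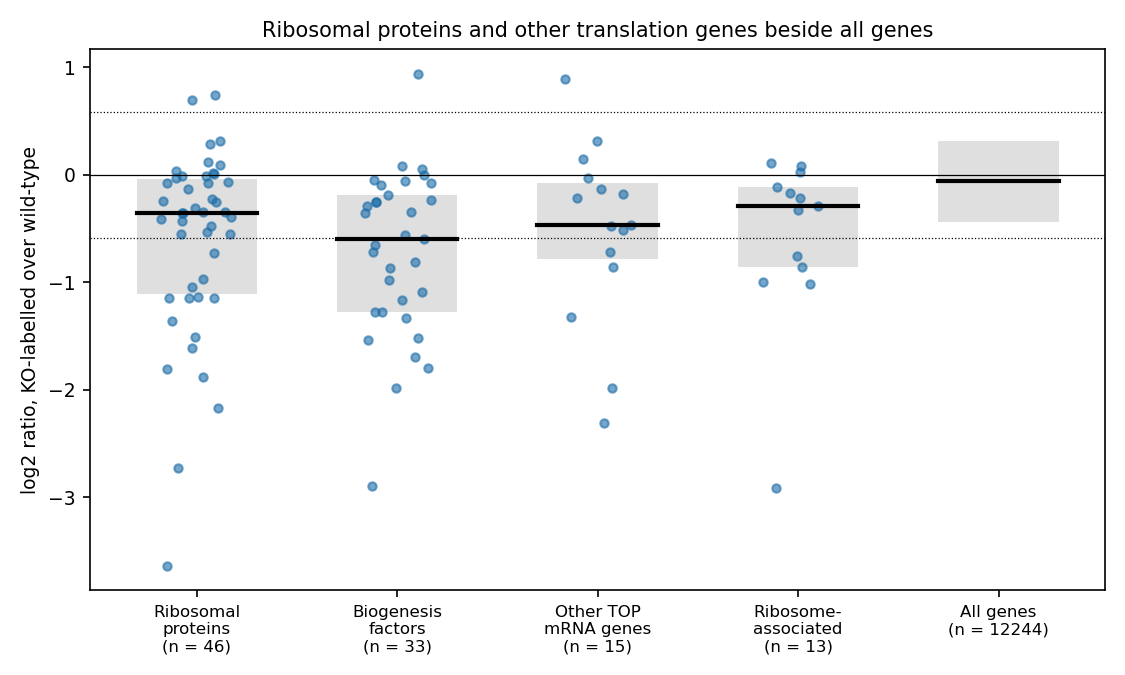
Log2 ratio of KO-labelled over wild-type for the 46 measured ribosomal protein genes, 33 biogenesis factors, 15 other TOP mRNA genes and 13 ribosome-associated factors, a point per gene, beside all 12244 measured genes; thick lines are medians and grey boxes the interquartile ranges. Npm1, Naca and Btf3 are shown in each list they belong to. The medians are -0.36, -0.60, -0.47, -0.29 and -0.06, and the boxes of all 4 lists overlap that of all genes.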

How the data were processed

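The deposited values are linear signal intensities, 1 per probe set and array, made with the Affymetrix software GCOS per the submitters' processing notes, which name no version here. Both arrays (45101 probe sets each) have a mean of 500.0 after trimming 2% at either end, so the authors' values had been scaled to a common mean. The floor of 64.2 units is percentile 40 of the signals of both arrays without controls. Ratios, unlike printed signals, were centred by subtracting 0.01. The platform annotation gave 1 symbol to 34945 probe sets, several to 932 and none to 9160. By gene identifier, 34741 matched RefSeq (GRCm38.p6), from which gene lengths, introns included, were taken.

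Members, lists and structural roles were chosen with earlier results of these data known. Named with values are the 8 lowest and 5 highest ratios, members with all probe sets 1.5-fold apart, the 5 widest spreads, the 5 brightest, paralogs, the pseudogene, members below the floor, and up to 3 genes at either end of each other list; the other members are given briefly. With 1 array per group no p-value was computed. Functions were tested on simulated data. Alternatives covered the floor, the scaling (none, quantile, loess with fraction 0.3), the probe set standing for a gene, suffixed probe sets and core genes only. Python 3.11.15, numpy 2.4.6, pandas 2.3.3, statsmodels 0.14.6 and matplotlib 3.10.9 were used.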

Additional observations from a re-analysis of the deposited data

How the results depend on the processing

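No paired analysis was possible because each group has 1 array, and for the same reason no replicate could be left out. The median log2 ratio of ribosomal protein genes stayed below 0 and below that of all genes under each of the 9 alternatives run on all genes, with a gap of -0.42 to -0.14 to the median of all genes. It was -0.46 without a floor, -0.18 with quantile normalization, -0.21 without suffixed probe sets and, chosen after the data were seen, -0.49 with several-symbol probe sets. Counts of members at least 1.5-fold lower and higher were 15 and 2, against 14 and 1 with quantile normalization, 4 and 5 of 22 without suffixed probe sets, 8 and 1 of 19 by second brightest probe sets, 13 and 1 for core genes, and, chosen after the data were seen, 13 and 0 in the brightest 10% of genes and 33 and 1 with several-symbol probe sets. Beside these counts, the lower share over all genes was 18.1% without suffixed probe sets, 18.2% with quantile normalization and 19.1% by second brightest probe sets. Without suffixed probe sets, the lower share of members, 18.2%, was thus nearly the same as over all genes. The median of the small subunit was -0.50 without a floor and -0.13 without suffixed probe sets. That of the large subunit was -0.14 with quantile normalization and -0.21 without suffixed probe sets. Biogenesis factors had -0.76 without a floor. Other TOP mRNA genes had -0.57 without a floor, -0.28 with quantile normalization, -0.36 with loess, -0.18 without suffixed probe sets and -0.74 by second brightest probe sets. Ribosome-associated factors had -0.16 with the floor at the 60th percentile, -0.40 without one, -0.51 by the median probe set and -0.69 by the second brightest. Of 362 values of single members under alternatives, 11 moved by more than the probe set error of 0.58 and 36 changed sign, 27 of them by less than that error from values within 1.5-fold. The other 9 were Rps24 (1.502), Rpl35 (0.20), Rpl41 (1.96), Rps20 (0.70), Rps10 (0.58) and Rps9 (0.56) without suffixed probe sets, Rpl41 (0.80) and Rps9 (0.56) by the median probe set, and Rps9 (0.72) by the second brightest. Of the 62 member probe sets in the brightest 10%, 5 have no suffix, so the suffix alternative removes most bright probe sets of members. Over all single-gene probe sets, 1127 of the 2097 in the brightest 10% have no suffix. The parts of suffix and brightness in that shift, and the cause of the other shifts, were not tested.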
